A study of Mus musculus with 4 samples.

Results

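The levels of 9 microRNAs (miRNAs) known from neurons and glia were followed in small RNA libraries of mouse aorta: miR-9-5p, miR-9-3p, miR-124-3p, miR-128-3p, miR-138-5p, miR-219a-5p, miR-338-3p, miR-137-3p and miR-129-5p. They were chosen by name, as a view on the nerves that accompany the vessel, and all 9 were found among the 1152 entries listed for each library. Wild type C57BL/6 mice labelled 12-week gave 2 Sham and 2 CKD libraries, where CKD stands for chronic kidney disease, and the study asked how miRNAs of the aorta differ in the vascular calcification that this disease induces. Per the labels, both poles of the left kidney were cut away, the right kidney was taken out 1 week later, and a diet with 2% phosphate and drinking water with 0.45% NaCl followed for 4 weeks. The same wording stands on the Sham samples, so the operation and diet of the Sham mice are not stated in the labels. Each library was a pool of 4 samples, and nothing says whether the replicates came from separate preparations of separate animals. The p-values below therefore measure the spread between libraries, which may be technical.

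A miRNA is a short RNA that pairs through its seed, bases 2 to 8, with messenger RNAs and represses them, and it is cut from 1 of the arms (5p or 3p) of a hairpin. miR-124 and miR-9 are classic miRNAs of neurons and their precursors, while miR-219 and miR-338 are known from oligodendrocytes, the glia that wrap axons of the central nervous system with myelin. The aorta is reached by sympathetic and sensory nerve fibres in its outer coat, whose cell bodies lie in ganglia outside the vessel, and these fibres are accompanied by Schwann cells. In bulk tissue fewer cells of a type and less RNA per cell cannot be told apart, and several of these miRNAs are also made outside the nervous system.

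The mature sequences are shown because the seed sets which messages a miRNA can pair with. They come from RefSeq (GRCm38.p6), which matched 8 of the 9, and the capitals mark the seed.
miR-9-5p: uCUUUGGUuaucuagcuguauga
miR-9-3p: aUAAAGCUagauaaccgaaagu
miR-128-3p: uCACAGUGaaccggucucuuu
miR-138-5p: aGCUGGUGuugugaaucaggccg
miR-129-5p: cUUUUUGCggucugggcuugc
miR-137-3p: uUAUUGCUuaagaauacgcguag
miR-338-3p: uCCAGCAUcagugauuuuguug
miR-219a-5p: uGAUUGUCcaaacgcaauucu

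The 8 seeds all differ from each other, and none is shared with any of the other listed entries that have a RefSeq sequence (900 of the 1079 named entries matched). No such entry lies within 2 edits of a member either. The nearest were miR-219b-5p, 5 edits from miR-219a-5p, and miR-5132-5p, 5 edits from miR-138-5p. No other entry held the same values as a member in all 4 libraries. The 8 are 21 to 23 nt long, inside the 18 to 30 nt cut from the gel. The labels also give a later cut of the finished library, for RNA of 22 to 30 nt. miR-128-3p, miR-129-5p and miR-219a-5p, at 21 nt, lie just under that range, and the effect on their reads was not tested.

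miR-128-3p overlaps with an abundant family of the vessel wall when the alignment is moved by 1 base. Its first 8 bases stand at bases 2 to 9 of miR-27b-3p and miR-27a-3p, here in capitals.
miR-128-3p: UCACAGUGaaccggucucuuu
miR-27b-3p: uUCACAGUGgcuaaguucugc
miR-27a-3p: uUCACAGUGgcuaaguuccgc
miR-27b-3p was listed at 10465.68 and 13582.51 CPM (reads scaled to one fixed total per library) in Sham against 26883.29 and 23263.49 CPM in CKD. miR-128-3p stayed under 34 CPM in every library, so of the reads of these 3 entries nearly all belonged to the miR-27 pair.

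Most members are cut from more than 1 hairpin, so their reads cannot be given to a single locus. In GRCm38 and GENCODE M21, the 3 copies of miR-9 are Mir9-1 on chromosome 3 (88215598 to 88215686, an intron of Gm3764), Mir9-2 on chromosome 13 (83738814 to 83738885, an exon of C130071C03Rik) and Mir9-3 on chromosome 7 (79505264 to 79505353, an intron of Mir9-3hg). The host transcripts of miR-9 are long non-coding RNAs. miR-128-3p comes from introns of 2 protein-coding genes, R3hdm1 (Mir128-1, chromosome 1, 128202361 to 128202430) and Arpp21 (Mir128-2, chromosome 9, 112118636 to 112118711). Mir338 has 1 copy, on chromosome 11 from 120014765 to 120014862 in an intron of Aatk, a kinase gene of neural tissue. Mir137 also has 1 copy, on chromosome 3 from 118433857 to 118433929. miR-138-5p comes from Mir138-1 (chromosome 9, 122682876 to 122682974) and Mir138-2 (chromosome 8, 94324311 to 94324381), and miR-219a-5p from Mir219a-1 (chromosome 17, 34024983 to 34025092) and Mir219a-2 (chromosome 2, 29845631 to 29845727). miR-129-5p comes from Mir129-1 (chromosome 6, 29022619 to 29022691) and Mir129-2 (chromosome 2, 94241364 to 94241453, an intron of Mir670hg). Of the 13 hairpins, Mir219a-2 alone overlapped no other annotated gene on its strand.

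The libraries held between 16658810 and 17532748 listed reads, so 3 reads corresponded to 0.171 to 0.180 CPM. The 4 arms of miR-143 and miR-145a, defining miRNAs of smooth muscle, summed to 833700 and 775000 CPM in Sham against 485600 and 488700 CPM in CKD. miR-143-3p alone went from 798183.46 and 725182.23 CPM to 411359.08 and 407824.15 CPM, and it was the only 1 of the 4 arms that fell. The other 3 had log2 differences above 0 on log2(CPM + 1). These were 0.77 for miR-143-5p, 0.85 for miR-145a-5p and 1.81 for miR-145a-3p. All libraries have the same CPM total, so a smaller share of miR-143-3p lifts all other entries on this deposited scale. The median log2 difference of the 479 entries with a mean of at least 1 CPM was 1.34 on log2(CPM + 1). The members' levels and differences are therefore given a second time after trimmed-mean (TMM) scaling, which assumes that most entries do not change and left a median of 0.02. Neither scale shows absolute amounts.

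The 9 members were rare in the aorta and together made up 49.02 and 69.57 CPM in Sham against 191.3 and 242.1 CPM in CKD. That was 859 and 1174 reads against 3355 and 4033 reads. The summed level was 3.65-fold higher in CKD on the deposited scale (59.3 ± 14.5 against 217 ± 35.9 CPM, SD, n = 2). Both CKD libraries lay above both Sham libraries, and an exact two-sided permutation test gave p = 0.333, the smallest that 2 against 2 libraries allow. After TMM scaling the sums were 100.7 and 99.86 in Sham against 104.6 and 150.2 in CKD, a 1.27-fold higher mean. There CKD 1 lay close to the Sham libraries, and CKD 2 alone was clearly higher. With miR-143-3p left out of the CPM total, the sums were 242.9 and 253.1 in Sham against 325.1 and 408.8 in CKD, 1.48-fold higher.

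**Figure D1:**
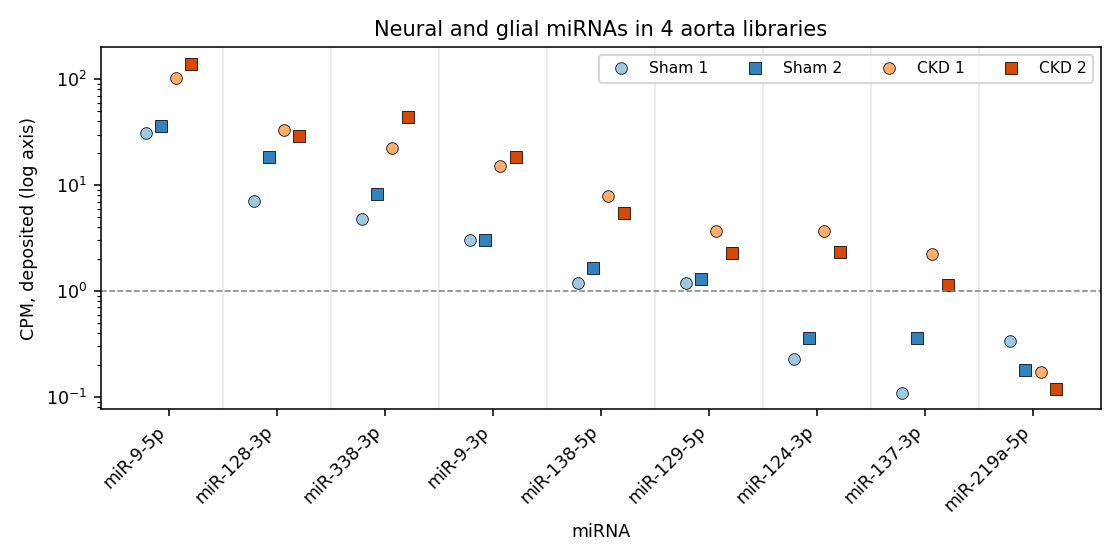
Deposited level (CPM, log axis) of each of the 9 members in the 4 libraries, in order of mean level, with a dashed line at 1 CPM. For 8 members both CKD points lie above both Sham points, as they do for 91.2% of the 479 entries with a mean of at least 1 CPM. In contrast, miR-219a-5p lies under 0.4 CPM in all 4 libraries.

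miR-9-5p, the main arm of a miRNA that holds the balance between neural progenitors and neurons, was the most abundant member in every library. It had 31.05 and 36.02 CPM in Sham against 103.41 and 139.87 CPM in CKD, from 544, 608, 1813 and 2330 reads. The groups did not overlap on the deposited scale, where it rose by 1.82 on the log2 scale (SE 0.39, limma adjusted p = 0.0021). After TMM scaling the levels were 63.8 and 51.7 in Sham against 56.5 and 86.8 in CKD. Those groups overlapped, since CKD 1 lay between the Sham libraries, and the log2 difference was 0.28 (SE 0.25, limma adjusted p = 0.49). Leaving out either CKD library ended the deposited call, with 2.03 and an adjusted p of 0.065 from limma without CKD 1, and 1.60 and 0.085 without CKD 2.

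miR-9-3p, the other arm of the same hairpins, was less abundant and stood further apart between the groups. It had 3.02 CPM in both Sham libraries (53 and 51 reads), and 15.0 and 18.37 CPM in CKD (263 and 306 reads). The equal Sham values are closer than counting error, since the exact 95% Poisson interval of the first runs from 2.27 to 3.96 CPM. It rose by 2.13 on the deposited scale (with an SE of 0.29 and a limma adjusted p of 0.0005), a larger difference than in 93.5% of the tested entries. After TMM scaling the levels were 6.20 and 4.33 in Sham against 8.20 and 11.4 in CKD, still without overlap. Its log2 difference there was 0.78 (SE 0.24), above that of 91.0% of tested entries, but it missed the threshold (limma adjusted p = 0.13, unadjusted 0.025).

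miR-124-3p, the most abundant miRNA of mature neurons in the brain, was close to zero in Sham. It was read 4 and 6 times in Sham against 64 and 39 times in CKD, or 0.23 and 0.36 against 3.65 and 2.34 CPM. On the deposited scale the exact 95% Poisson intervals reached at most 0.774 CPM in Sham and began at 1.66 CPM in CKD. The groups thus stood apart beyond counting error on that scale, and counting error is all that these intervals cover. Intervals were not computed after TMM scaling. The mean was 10.2-fold higher in CKD, the highest fold among the tested members, while the log2 difference on CPM + 1 was 1.61 (SE 0.34, limma adjusted p = 0.002), because adding 1 CPM shrinks changes of such low entries. After TMM scaling it lay at 0.86 (SE 0.24, limma adjusted p = 0.10, unadjusted 0.017), with levels of 0.472 and 0.517 against 2.00 and 1.45. It entered the test only through its CKD values, as its Sham mean of 0.295 CPM lay under the minimum of 1.

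miR-137-3p, a miRNA of neuronal maturation whose gene is linked to schizophrenia, was also near zero in Sham. It was read 2 and 6 times in Sham against 39 and 19 times in CKD, or 0.11 and 0.36 against 2.22 and 1.14 CPM. Its mean over all libraries, 0.958 CPM, fell just under the minimum for testing. Both CKD libraries lay above both Sham libraries on either scale, with 0.226 and 0.517 against 1.21 and 0.707 after TMM scaling. The counting intervals of Sham 2 (0.130 to 0.774 CPM) and CKD 2 (0.687 to 1.78 CPM) overlapped on the deposited scale, which is no test of a difference.

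miR-128-3p, enriched in brain neurons but also made in many other tissues, lay at the middle of all tested entries. It had 7.13 and 18.49 CPM in Sham against 33.14 and 28.87 CPM in CKD, so the Sham libraries differed from each other more than the CKD libraries did. On the deposited scale it rose by 1.34 (SE 0.41, limma adjusted p = 0.011), and 50.7% of tested entries had a smaller difference. After TMM scaling Sham 1 was the lowest library at 14.6 and Sham 2 the highest at 26.5, with CKD at 18.1 and 17.9 between them. The log2 difference there was -0.13 (SE 0.29, limma adjusted p = 0.81). The deposited call was lost without Sham 1 (0.71, limma adjusted p = 0.064), without CKD 1 (1.25, limma adjusted p = 0.16) and without CKD 2 (1.44, limma adjusted p = 0.077). With no filter the difference was the same and the limma adjusted p was 0.12.

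miR-138-5p, which restrains dendritic spine growth in neurons, was read at a few CPM. It had 1.20 and 1.66 CPM in Sham (21 and 28 reads) against 7.87 and 5.40 CPM in CKD (138 and 90 reads). The groups were apart on the deposited scale, where it rose by 1.64 (SE 0.31, limma adjusted p = 0.0013). They were also apart after TMM scaling, with 2.46 and 2.38 against 4.30 and 3.35, which is 0.49 on the log2 scale (SE 0.18, limma adjusted p = 0.18, unadjusted 0.049).

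miR-129-5p, known from neurons and sensitive to their activity, had the smallest difference of the 7 tested members. It had 1.20 and 1.30 CPM in Sham (21 and 22 reads) against 3.65 and 2.28 CPM in CKD (64 and 38 reads). It rose by 0.80 on the deposited scale (with an SE of 0.32 and a limma adjusted p of 0.036), where 16.7% of tested entries had a smaller difference. After TMM scaling the levels overlapped, with 2.46 and 1.87 against 2.00 and 1.41, and the log2 difference was -0.23 (SE 0.23, limma adjusted p = 0.54). The deposited call was lost without Sham 1, Sham 2 or CKD 1, with limma adjusted p of 0.13, 0.098 and 0.10 at log2 differences of 0.76, 0.83 and 0.54. It was also lost with no filter (0.80, limma adjusted p = 0.10) and in edgeR (1.24, adjusted p = 0.055).

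The glial pair split, with miR-338-3p well measured and miR-219a-5p near zero. miR-338-3p, which promotes myelinating glia, had 4.74 and 8.18 CPM in Sham (83 and 138 reads) against 22.24 and 43.70 CPM in CKD (390 and 728 reads). It rose by 2.15 on the deposited scale (with an SE of 0.39 and a limma adjusted p of 0.0012), with 29 tested entries above it. On log2(CPM + 1) this was the largest difference of the 7 tested members, but miR-124-3p (2.96) and miR-9-3p (2.42) exceeded it with a pseudocount of 0.1 (2.30). After TMM scaling it had 9.74 and 11.7 in Sham against 12.2 and 27.1 in CKD. The CKD libraries lay above the Sham libraries, CKD 1 only slightly, and the log2 difference was 0.72 (SE 0.39, limma adjusted p = 0.30). This value rests on CKD 2, being 0.17 without that library and 1.25 without CKD 1.

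miR-219a-5p, the partner of miR-338 in oligodendrocytes, was read 6 and 3 times in Sham against 3 and 2 times in CKD. These values correspond to 0.34 and 0.18 CPM against 0.17 and 0.12 CPM, at or near the level of 3 reads. After TMM scaling they were 0.698 and 0.258 against 0.0929 and 0.0745. It was the only member whose CKD libraries both lay under the Sham libraries. All 4 counting intervals overlapped on the deposited scale (0.126 to 0.745 CPM in Sham 1 and 0.0145 to 0.434 CPM in CKD 2). Such overlap is no test of a difference, and intervals were not computed after TMM scaling. The entry lay under the minimum for testing, so whether the groups differ was not tested, and no fold is given. The opposite arm of Mir219a-1 was as rare, with 1 and 4 reads in Sham against 5 and 3 in CKD.

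At an adjusted p of 0.05, limma called all 7 tested members higher in CKD on the deposited scale, against 82.9% of all tested entries, so a high count here is what most entries showed. The 7 also had CKD libraries above the Sham libraries, as did 91.2% of tested entries. The members' median log2 difference was 1.64 beside 1.34 over all tested entries. After TMM scaling limma called none of the 7, where it called 7.93% of all tested entries. At an unadjusted limma p under 0.05 there were 3 of the 7 (miR-9-3p, miR-124-3p and miR-138-5p), against 128 of the 479 tested entries. With TMM factors, edgeR called none where it called 6.89% of all tested entries. DESeq2 called none of the 6 to which it gave an adjusted p (not miR-124-3p), against 18.7% of all entries with one. The median was 0.49 beside 0.02, with 5 members above 0 and 2 below (miR-128-3p and miR-129-5p). In 4 of the 7 (miR-9-3p, miR-124-3p, miR-138-5p and miR-338-3p) both CKD libraries lay above both Sham libraries after TMM scaling, against 29.9% of tested entries. These medians and counts cover members that passed a minimum on their mean level, which miR-124-3p met only through CKD. Without CKD 1, 3 of 6 testable members were called on the deposited scale (miR-9-3p, miR-138-5p and miR-338-3p), where 29.3% of all tested entries were called higher. With no filter limma called 5 of the 9 higher, against 26.6% of all entries. On the recovered reads with library totals, edgeR called 6 of the 7 higher, against 77.0% of tested entries.

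**Figure D2:**
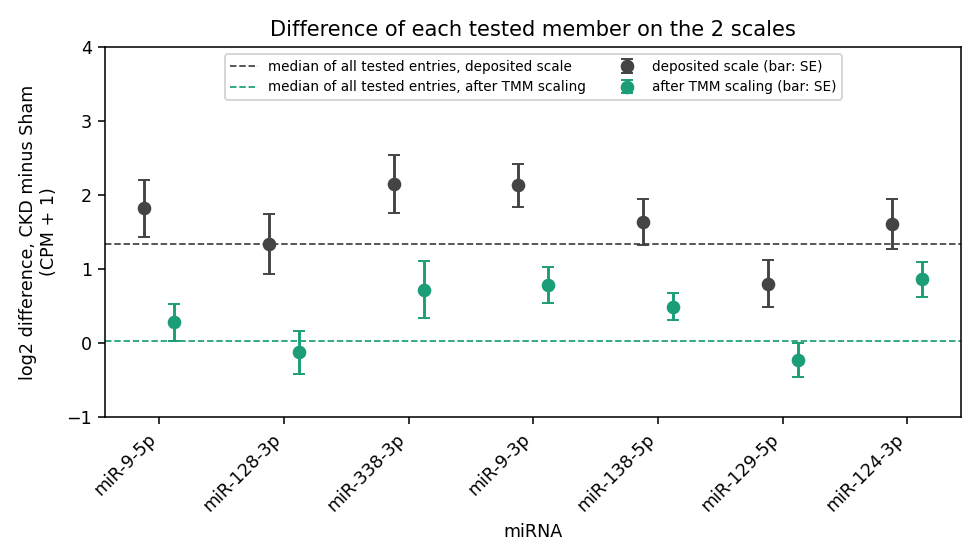
Log2 difference between CKD and Sham, on log2(CPM + 1), of the 7 tested members on the deposited scale and after TMM scaling. Points are limma estimates with their SE, and dashed lines mark the medians of all 479 tested entries, 1.34 and 0.02.

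**Figure D3:**
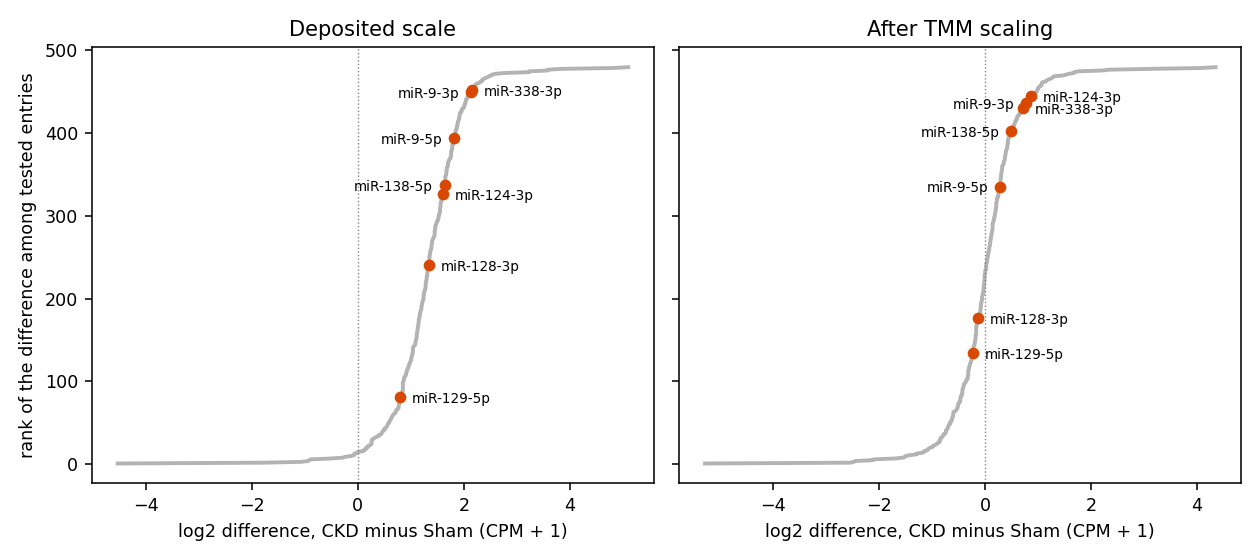
Rank of each tested member (orange) among the log2 differences of all 479 tested entries (grey line, x axis on log2(CPM + 1)), on the deposited scale and after TMM scaling. miR-9-3p and miR-338-3p lie near the top on both, whereas miR-128-3p and miR-129-5p lie near or below the middle.

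Rank by abundance does not depend on scaling. Among the 1152 entries miR-9-5p held ranks 126 and 137 in Sham against 130 and 116 in CKD. miR-338-3p went from ranks 248 and 238 to 225 and 169, and miR-9-3p from 284 and 316 to 267 and 234. miR-124-3p went from 503 and 515 to 393 and 417, and miR-137-3p from 552 and 515 to 430 and 479. miR-138-5p went from 349 and 371 to 322 and 342, a smaller move, and miR-128-3p, from 213 and 176 to 193 and 204, overlapped between groups. Further down the order in CKD were miR-129-5p, from 349 and 391 to 393 and 419, and miR-219a-5p, from 468 and 573 to 692 and 711. Ranks of rare entries also depend on how many entries were read, 730 and 795 in Sham against 963 and 940 in CKD. For miR-219a-5p the same 3 reads gave rank 573 in Sham 2 and 692 in CKD 1, so its ranks do not show a change. Rank compares an entry with entries of other capture efficiency, so it describes position and not copy number.

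The make-up of the member reads within a library is likewise free of scaling. miR-9-5p made up 63.3% and 51.8% of the summed member level in Sham against 54.0% and 57.8% in CKD, overlapping between groups. miR-128-3p came next in Sham 1, Sham 2 and CKD 1 with 14.5%, 26.6% and 17.3%, while in CKD 2 miR-338-3p (18.1%) passed miR-128-3p (11.9%). The order of these 2 therefore does not hold across libraries. miR-9-3p made up 6.16% and 4.34% in Sham against 7.84% and 7.59% in CKD, and miR-124-3p 0.469% and 0.517% against 1.91% and 0.967%. Those were the 2 members whose share was higher in both CKD libraries, miR-219a-5p (0.694% and 0.259% against 0.0888% and 0.0496%) had a lower share in both, and the other 6 overlapped. Reads of different miRNAs are compared here per molecule captured, each read covering a whole mature miRNA, and adaptor ligation captures some sequences better than others.

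**Figure D4:**
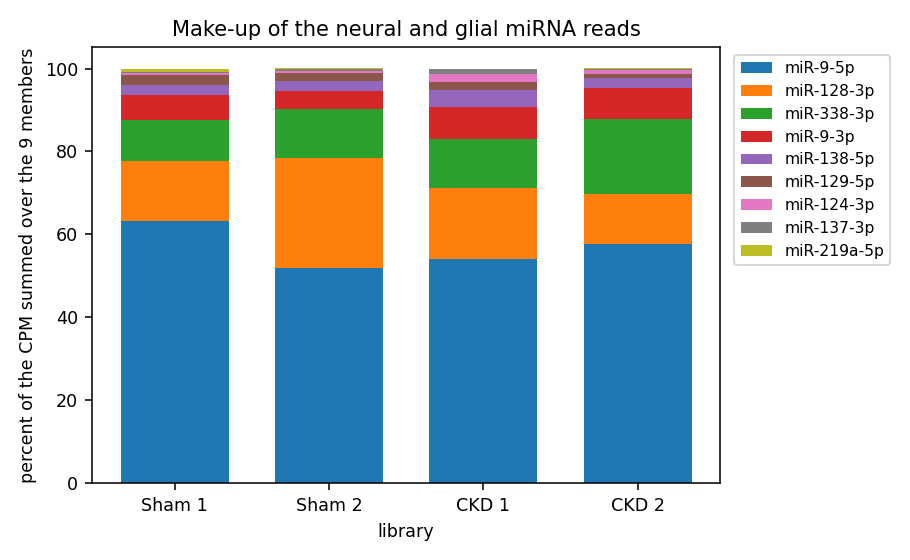
Percent of the CPM summed over the 9 members that each member contributed, by library. miR-9-5p makes up between 51.8% and 63.3%, and the segment of miR-338-3p is widest in CKD 2 (18.1%).

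The ratio of the reads of the 2 arms of a hairpin can be taken within a library without any scaling. For miR-9, the 5p arm was read 10.3 and 11.9 times as often as the 3p arm in Sham against 6.89 and 7.61 times in CKD. The log2 ratio on CPM + 1 was 3.10 ± 0.15 in Sham against 2.78 ± 0.11 in CKD (SD, n = 2), a difference of -0.31. The groups did not overlap, and the exact two-sided permutation test gave p = 0.333, the smallest possible (0.333 adjusted over the 2 hairpins tested). The added 1 CPM weighs more where an arm is rare, so this log2 ratio, unlike the read ratio, is not free of scaling. With a pseudocount of 0.1 the difference was -0.58. With a pseudocount of 10, which exceeds the Sham level of the 3p arm, the sign turned (0.55). For miR-338, whose 3p arm is the main product, the ratio of 3p to 5p reads was 1.84 and 2.23 in Sham against 2.06 and 3.15 in CKD, overlapping between groups. Its log2 ratio of 5p to 3p on CPM + 1 was -0.69 and -0.98 in Sham against -0.98 and -1.59 in CKD, with Sham 2 and CKD 1 nearly equal. That is a difference of -0.45 (exact two-sided permutation p = 0.333), and -0.35 and -0.58 with pseudocounts of 0.1 and 10. miR-338-5p itself had 45 and 62 reads in Sham against 189 and 231 in CKD, rose on the deposited scale by 1.70 (limma adjusted p = 0.0011), and lay at 0.38 after TMM scaling (limma adjusted p = 0.31).

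The remaining opposite arms all had a mean under 1 CPM. Of the 11 names fixed, 8 were listed, and miR-338-5p alone passed the minimum of 1 CPM. miR-124-5p had 0 and 1 reads in Sham against 0 and 2 in CKD, where a count of 0 allows up to 0.171 CPM. miR-138-1-3p had 0 reads in both Sham libraries and 2 in each CKD library, and miR-128-1-5p had 1 and 2 against 7 and 4. These counts are too low to compare the groups. The highest counts were those of miR-129-2-3p, with 4 and 3 reads in Sham against 22 and 25 in CKD, and of miR-129-1-3p, with 12 and 8 against 18 and 14.

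A wider list of miRNAs known from neurons or glia was mostly higher on the deposited scale and mostly uncalled after TMM scaling. Of 20 names fixed for this list, 18 were listed and 10 passed the minimum, and all 10 were called higher on the deposited scale, where 82.9% of tested entries were. Their median log2 difference was 1.78 there and 0.40 after TMM scaling. These counts and medians include 3 entries that met the minimum only through CKD (miR-7b-5p, miR-135a-5p and miR-323-3p). The most abundant was miR-7a-5p, found in neurons and neuroendocrine cells, with 42.86 and 78.38 CPM in Sham against 173.67 and 213.94 CPM in CKD. After TMM scaling it lay at 0.17 (SE 0.23, limma adjusted p = 0.64), and its deposited call (1.72) was lost without CKD 1 or CKD 2, at differences of 1.87 and 1.57 (limma adjusted p = 0.084 and 0.10). miR-218-5p, a miRNA of motor neurons that is also made from the Slit genes in vessels, had 22.20 and 29.62 against 115.33 and 90.88 CPM, and lay at 0.43 after TMM scaling (SE 0.13, limma adjusted p = 0.13). miR-330-3p lay at -0.16 and miR-132-3p, induced by neuronal activity, at 0.39 (limma adjusted p = 0.42 and 0.26). Without CKD 1 the deposited calls of miR-218-5p (1.79), miR-132-3p (1.82) and miR-330-3p (1.24) were lost, with limma adjusted p of 0.081, 0.061 and 0.16. That of miR-330-3p was also lost without CKD 2 (1.44, limma adjusted p = 0.092).

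miR-212-3p, made from the same transcript as miR-132 and induced by the factor CREB, was the 1 of these 10 called after TMM scaling, where 7.93% of all tested entries were. It had 0.86 and 1.18 CPM in Sham (15 and 20 reads) against 9.75 and 6.66 CPM in CKD (171 and 111 reads). Its difference in log2(CPM + 1) was 2.17 on the deposited scale (limma adjusted p = 0.0006) and 1.06 after TMM scaling (SE 0.19, limma adjusted p = 0.044). That call was lost when any 1 of the 4 libraries was left out, at log2 differences of 0.86 (without CKD 1) to 1.16 (without CKD 2) and limma adjusted p of 0.14 to 0.19. It was also lost in edgeR (log2 1.45, adjusted p = 0.074) and DESeq2 (log2 1.47, adjusted p = 0.075), where the difference was no smaller. Further limma fits that lost it used no filter (adjusted p = 0.13), a pseudocount of 10 (0.055), median-of-ratios scaling (0.05), upper-quartile scaling (0.069) or totals without the 10 most abundant entries (0.064). The 8 names under the minimum included miR-153-3p, a brain miRNA, with 1 and 0 reads in Sham against 4 and 0 in CKD, and miR-346-5p, with 0 reads in both Sham libraries.

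**Figure D5:**
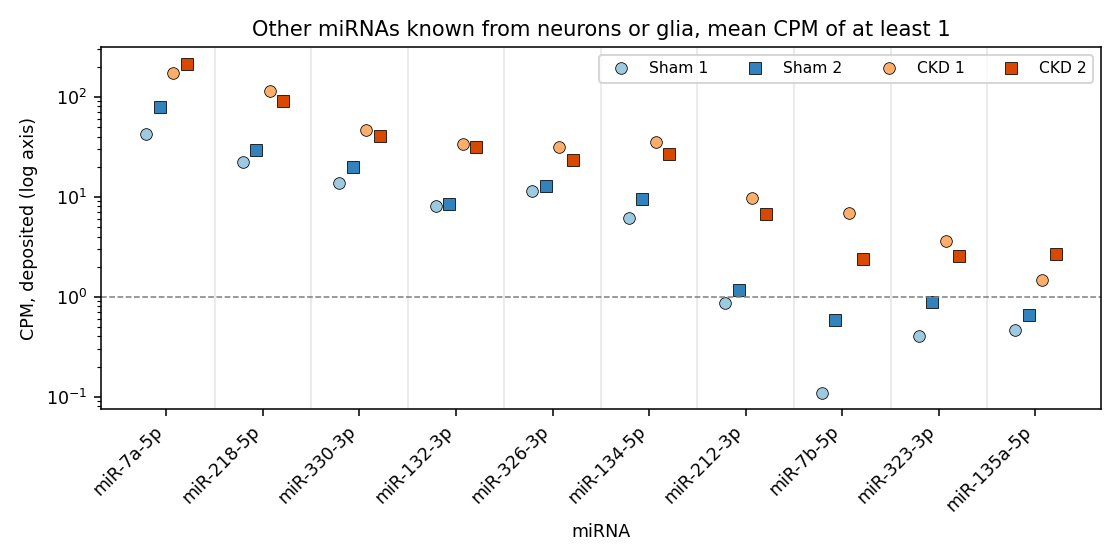
Deposited level (CPM, log axis) in the 4 libraries of the 10 other miRNAs known from neurons or glia with a mean of at least 1 CPM, with a dashed line at 1 CPM. Both CKD points lie above both Sham points for all 10, as they do for 91.2% of the 479 tested entries. miR-212-3p and miR-7b-5p are the most widely separated.

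Several lists of markers of other cell types also had higher summed levels in CKD. On the deposited scale the summed level was 3.65-fold higher in CKD for the members, 3.13-fold for the 2 endothelial arms of miR-126a, 3.68-fold for 7 epithelial miRNAs, 4.27-fold for 3 liver and kidney miRNAs and 5.51-fold for 4 red cell miRNAs. It was 3.51-fold for 5 neuroendocrine and sensory miRNAs, a list that shares miR-7a-5p with the one above. After TMM scaling these folds were 1.27 for the members and 1.06, 1.22, 1.48, 2.14 and 1.25 for the lists in that order. There the groups overlapped for the endothelial, epithelial, red cell and neuroendocrine sums, and not for the members or the liver and kidney list. The red cell sums were 450.7 and 1207 in Sham against 566.1 and 2980 in CKD. Of the 7 epithelial miRNAs, 4 lay above 0 and 3 below. The 5 fat miRNAs had a summed level 3.28-fold that of Sham on the deposited scale and 1.14-fold after TMM scaling. After TMM scaling 4 of these 5 lay below 0 and 1 above, with log2 differences from -2.11 to 0.48 and a median of -0.22. Their sum therefore does not give the direction of most of them. Striated muscle miRNAs (1.95-fold and 0.660-fold) lay below Sham on the second scale. Leukocyte miRNAs (2.72-fold and 0.971-fold) overlapped there, with sums of 479.4 and 659.1 in Sham against 468.3 and 636.9 in CKD. No marker was at 0 in any library except 1 of the 7 of striated muscle. The red cell sum was 219.4 and 840.6 CPM in the Sham libraries against 1035 and 4804 CPM in CKD, highest in CKD 2, the library in which miR-9-5p and miR-338-3p were also highest. The part of these cell types in the members' values was not tested.

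The entries most like miR-9-5p and miR-128-3p, the members with the highest means over all 4 libraries (77.6 and 21.9 CPM, beside 19.7 CPM for miR-338-3p, which was higher in CKD 2), were sought over the 4 libraries, by distance between log2(CPM + 1) profiles centred on their own mean, among 264 entries with a mean of at least 10 CPM. For miR-9-5p they were miR-425-5p (distance 0.29), miR-674-5p (0.29) and miR-92b-3p (0.30). For miR-128-3p they were miR-450a-5p (0.18), miR-152-5p (0.27) and miR-181a-1-3p (0.33). With 4 libraries, all sharing the shift in scale, many entries lie close to each other, and these distances are a description only.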

How the data were processed

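Small RNA of aorta was sequenced in 2 Sham and 2 CKD libraries, grouped by title. Per the submitters' processing notes Bowtie and GRCm38 were used, and how reads were counted, or shared between hairpin copies, is not stated in the labels. The file headers write Ctrl for Sham. The unit of the deposited values is not stated, and CPM was inferred from their sums and from steps of a single read. The deposited CPM values (3 libraries in a layout of another kind, unit other, with the names stacked above the values, paired by order) sum to the same total. Taken as such steps, 100% of the values above 0 came out whole in each library (tolerance 0.0051 CPM), which gave 17520690, 16878392, 17532748 and 16658810 reads.

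limma 3.58.1 (R 4.3.3) was run with a mean-variance trend on log2(CPM + 1) for 479 entries with a mean of at least 1 CPM, and a second time after dividing by TMM factors (edgeR 4.0.16, from 0.487 to 1.83), two-sided, at a Benjamini-Hochberg adjusted p of 0.05. The model has 2 residual degrees of freedom, and limma borrows variance across entries. Before use, the limma fit was run on simulated counts whose known changes went up or down at random. Those counts were not built with the shift of most entries seen here, so that run checks the code and not the calls given above. edgeR's quasi-likelihood test and DESeq2 1.42.0 ran on the recovered reads. Counting intervals are exact Poisson at 95%, and the floor for 0 is 3 reads. The members and lists were chosen with earlier results of these data known. Named were the 9 members, the other arms, up to 4 of the other neural list plus any called after TMM scaling, entries with a member's seed, the 3 nearest profiles of the 2 most abundant members, and miR-143-3p. miR-153-3p, miR-346-5p, miR-7b-5p, miR-135a-5p, miR-323-3p, the rarer arms and the miR-27 pair were named after their values were seen. The other alternatives were further scalings, pseudocounts, filters, no trend, a replicate block and leaving out each library.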

Additional observations from a re-analysis of the deposited data

How the results depend on the processing

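The calls followed the scaling. Of all tested entries 402 were called on the deposited scale, and 38, 33, 30, 28 and 28 with TMM, median-of-ratios, upper-quartile scaling, totals without miR-143-3p and totals without the 10 most abundant entries. With each of these 5 scalings limma called 0 members. miR-128-3p turned to -0.13, -0.10, -0.20 and -0.11 with TMM, median-of-ratios, upper quartile and totals without the 10, and miR-129-5p to -0.23, -0.21, -0.28, -0.07 and -0.21 with the 5. On the deposited data miR-330-3p turned to -0.16, -0.14, -0.24 and -0.14 with TMM, median-of-ratios, upper quartile and totals without the 10. A minimum of 10 CPM left 241 calls among 265 entries and 3 testable members, all 3 called. Leaving out 1 library gave 137 (without CKD 1; 247 without CKD 2) to 384 entries (without Sham 2) and 3 to 6 members on the deposited scale, and 0 to 6 entries after TMM scaling (0 without CKD 1 or CKD 2). There, miR-9-5p ranged from -0.02 (without CKD 2) to 0.59 (without CKD 1), miR-128-3p from -0.54 (without Sham 1) to 0.23 (without Sham 2), and miR-7a-5p from -0.07 to 0.41. After TMM scaling no filter gave 21 calls and DESeq2 74. The summed share went from a log2 ratio of 1.87 to 0.57 without miR-143-3p in the total, and the arm ratio of miR-9 to 0.55 at a pseudocount of 10. Depth limits miR-219a-5p, miR-137-3p and most opposite arms. Deviations of same-numbered libraries from their group means correlate at 0.0999 on the deposited scale. With 2 libraries per group this is a single value, and it was not computed after TMM scaling. It therefore cannot decide whether the replicates were paired. With the replicate block 352 of the 479 tested entries and 6 of the 7 members were called on the deposited scale. The member lost was miR-129-5p (limma adjusted p = 0.092). After TMM scaling the block gave 97 of the 479 entries and 2 of the 7 members, miR-9-3p and miR-338-3p (limma adjusted p = 0.033 each).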

Other observations

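The 2 copies of miR-129 differ in their 3p arms, a comparison chosen after the values were seen. miR-129-2-3p was read 4 and 3 times in Sham and 22 and 25 times in CKD, and miR-129-1-3p 12 and 8 times against 18 and 14 times. The first thus made up 25.0% and 27.3% of the reads of both in Sham, and 55.0% and 64.1% in CKD. This share needs no scaling between libraries, and the groups did not overlap, but the exact two-sided permutation test cannot go below its value of p = 0.333. The exact 95% binomial intervals cover counting error only. They ran from 7.27% to 52.4% in Sham 1, from 38.5% to 70.7% in CKD 1 and from 47.2% to 78.8% in CKD 2, and so overlapped. Overlap of this kind is no test of a difference. The first 19 of the 22 bases of miR-129-2-3p are also found in the Mir129-1 hairpin (RefSeq, GRCm38.p6), so the split rests on the last bases of each read and on how reads that fit both were counted, which the labels do not state. The shared 5p arm, miR-129-5p, cannot tell the copies apart.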
